A study of Homo sapiens with 12 samples.

Results

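RNA of the human bladder cancer line 5637 was compared with RNA of the human renal cancer line 786-O, using the sh control libraries alone. There are 3 control libraries of each line, 6 of the 12 libraries of the series. The other 6 carry a short hairpin RNA against CBX7, a chromobox protein of Polycomb repressive complex 1, and the study set these against the controls within each line. The controls carry the control hairpin, their genotype label is control, and no treatment is given. Both lines were grown in RPMI-1640 with fetal bovine serum, and libraries were made from total RNA with a directional kit. Each line stands for 1 tumour. Of the 3 titles of 5637 controls, 2 carry another number in place of 5637, while the cell line label of all 3 is 5637. The table of 5637 writes si rather than sh in its column names, and its 3 control columns name the group without naming single samples. Nothing in the labels says whether the libraries of a line came from separate cultures, so the SD and SE given here measure the spread between libraries, which may be technical.

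Urothelium, the lining of the bladder, is a layered epithelium. Its basal cells carry the transcription factor TP63 and basal keratins and sit on a basement membrane through hemidesmosomes, while its luminal cells carry uroplakins under GATA3, FOXA1 and PPARG. Clear cell renal carcinoma arises from kidney tubule cells, which keep PAX8, and it usually loses VHL, the ligase that marks hypoxia-inducible factors (HIF) for breakdown. 786-O is widely used as a line without working VHL protein. HIF2A, encoded by EPAS1, is its main HIF.

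The authors quantified the lines in 2 separate tables of FPKM (fragments per kilobase of gene and per unit of sequencing depth). Of 19903 protein-coding genes with a unique name in the table of 786-O, 18548 were also in that of 5637. Their FPKM were rescaled to a sum of 1000000 in each library, and this value, which is per length, is called the level here. A log2 difference is that of the means of log2(level + 1), 5637 minus 786-O, which understates differences of low genes. A gene was tested if its mean level over the 6 libraries was at least 0.5 (13304 genes), and called if the lines differed by at least 4-fold on that scale with no overlap between libraries. No p-value is given, because line and table cannot be told apart.

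The libraries of a line were alike. The median absolute log2 difference between control libraries of a line was 0.0518 to 0.0589 in 5637 and 0.0872 to 0.149 in 786-O, and at most 5 genes were 4-fold apart in any such pair. Whole reads recovered from the FPKM came to 22182552, 29089082 and 30684653 in shared genes of 5637, and to 15904932, 16798478 and 15285083 in 786-O. Single values below are means over 3 libraries. Among named genes with a mean of at least 10, the median SD was 2.63% of the mean in 5637 and 5.13% in 786-O. At this depth the spread between libraries of a line was small against the 4-fold threshold for nearly all genes.

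Of 13304 tested genes, 2544 were called higher in 5637 (19.1%) and 796 higher in 786-O (5.98%). The median log2 difference of all tested genes was 0.65 and not 0, and all differences are to be read against that shift. The split of the calls depends on the scaling. With levels centred on their median it was 1250 against 1649, with quantile normalization 1377 against 1299, with percentile ranks 25 points apart 1435 against 1412, with FPKM as deposited 1162 against 643, and relative to genes of like length and GC 1388 against 1119. The number of a list's calls that held under 5 other scalings at once (FPKM as deposited, rescaling without the 100 highest genes, median centring, quantile normalization, and centring on genes of like length and GC) is given below as held under all scalings, or in parentheses. Over all genes these were 801 of 2544 and 548 of 796. FPKM as deposited are smaller than levels, with sums of 216634 to 218652 in 5637 controls and 253169 to 270705 in 786-O controls. The pseudocount of 1 was kept for them, so a gene of low level can lose its call there for its low value alone.

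**Figure D1:**
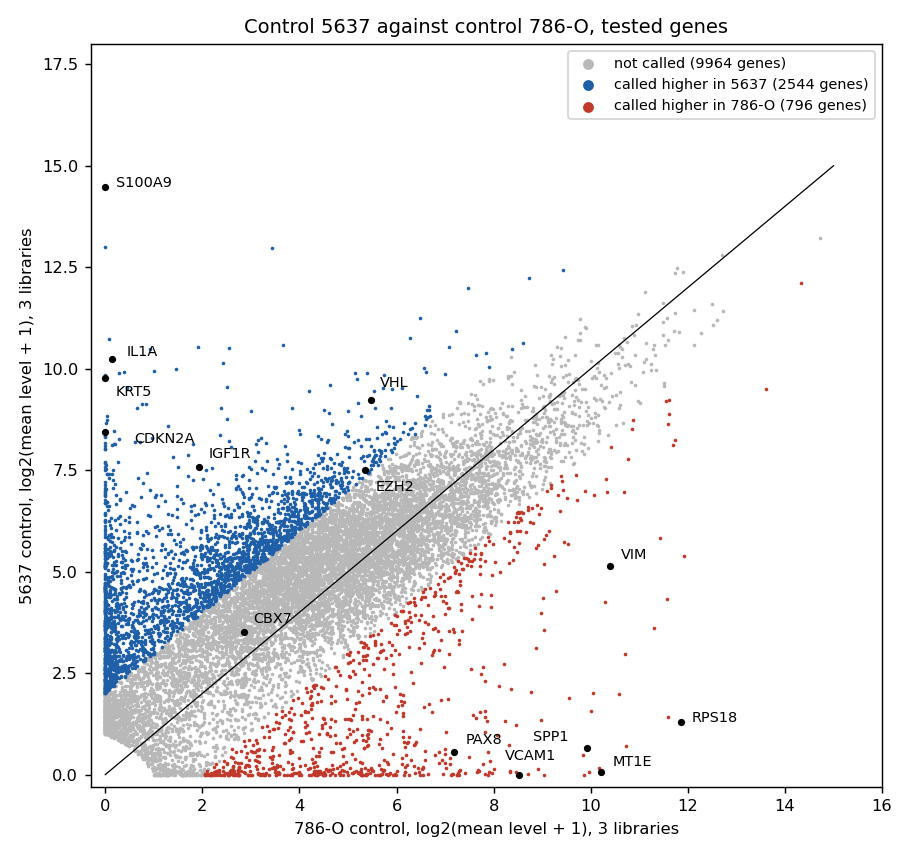
Mean level of each of the 13304 tested genes in 786-O control (x axis) and 5637 control (y axis), both as log2(mean level + 1) over 3 libraries, with the line of equality. Blue points are the 2544 genes called higher in 5637 and red points the 796 called higher in 786-O, and named genes are black. S100A9 stands at the upper left with 22842 in 5637 and 0 in 786-O.

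The shCBX7 libraries, which the control comparison does not use, gave a similar number of calls under the same rule, 2603 higher in 5637 (19.6%) and 825 higher in 786-O (6.2%). Of the control calls, 2200 higher in 5637 were called there too (86.5% of control calls, 84.5% of silenced calls), as were 671 higher in 786-O (84.3% and 81.3%). No gene was called in opposite directions. These libraries come from the same 2 tables, so they share whatever differs between the tables.

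Some stretches of the genome were near 0 in all 5637 libraries, genes that every cell uses included. In the MHC region of chromosome 6, 80 of 109 tested genes were called higher in 786-O, and the median level was 0.175 in 5637 against 43.0 in 786-O. The leukocyte receptor complex region of chromosome 19 (9 of 13 genes) and the pseudoautosomal ends of X and Y (9 of 10) behaved alike. RPS18, a ribosomal protein of the MHC region, was at 1.44, 1.502 and 1.44 in 5637 and at 3666, 3703 and 3806 in 786-O. TUBB, the main beta tubulin, was at 1.65 against 3079.7, and PSMB3, a core proteasome subunit on chromosome 17, at 0.0448 against 991. For each gene in doubt the median log2 difference of its 6 nearest tested neighbours is given below, which was -5.64 for RPS18, -6.44 for TUBB and -4.92 for PSMB3. Of the 796 genes higher in 786-O, 155 had neighbours with a median of -2 or lower, against 4 of the 2544 higher in 5637. Without such genes 641 remained in the first count. The part of alignment or counting in these stretches was not tested.

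Levels were ranked over the shared protein-coding genes, which leave out 13 mitochondrial genes holding 7.30% to 8.97% of protein-coding FPKM in 786-O. Among the 10 highest of each line, TMSB10, an actin-binding peptide, and ACTG1, gamma actin, were in both. ACTG1 was at 7164 ± 186 (SD, n = 3) in 5637 and 6693 ± 28.4 in 786-O. In 5637 the highest of these genes was S100A9 and in 786-O it was TMSB10 (26945), followed by FTL, the ferritin light chain (20574 against 4402 in 5637, a call lost under another scaling), and LGALS1, galectin 1 (12496 against 718). HMGA1, an architectural chromatin protein, was among the 10 highest of 5637 (4796 against 421). LUZP6 came next after S100A9 and TMSB10 in 5637 (8132 against 0), but its recovered reads equal those of MTPN, whose transcript contains it, in all 6 libraries of 5637, so its level is not its own.

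Basal urothelial markers gave the clearest block of genes higher in 5637. Of 18 tested members 15 were called higher in 5637 and 0 higher in 786-O, 13 of them under all 5 other scalings, with a median log2 difference of 5.21. KRT5, the basal keratin, was at 865, 871 and 880.2 in the 5637 libraries and 0 in all 3 libraries of 786-O, which makes it at least 5329-fold higher against a floor of 3 reads per library. TP63, the basal transcription factor, was at 207, 201 and 210.1 against 0.267, 0.231 and 0.0942. ITGB4, the hemidesmosome integrin, was at 1398, 1419 and 1460.4 against 0.786, 0.988 and 0.9001. In all 3 of these genes every 5637 library lay far above every 786-O library. The stress keratins KRT17 (959.6 against 0.315) and KRT6A (455 against 0.0252), P-cadherin CDH3 (354 against 0.135) and the hemidesmosome collagen COL17A1 (291 against 0.528) followed. Keratin genes have near-identical copies, and how the authors assigned shared reads is not given in the sources used here. CD44, KRT15 and EGFR were the members without a call.

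Luminal urothelial markers were split. Of 15 tested members 7 were higher in 5637 (46.7% against 19.1% of all tested genes, 5 under all scalings). In 786-O 0 were higher, and the median of the list was 1.84. KRT7, a simple-epithelium keratin, was at 1163, 1125 and 1115 in 5637 and 4.22, 4.11 and 4.86 in 786-O. KRT19 was at 5506 against 685. GATA3, the luminal regulator, was at 54.97, 49.6 and 55.6 against 2.898, 3.32 and 3.75, without overlap. PPARG, a nuclear receptor of luminal cells, was at 205 against 25.2, and FOXA1 at 32.3 against 4.24, a call that was lost under another scaling. Uroplakins, the plaque proteins of the luminal surface, were low in both lines. UPK2 was at 0.758, 1.57 and 1.64 in 5637 and 1.401, 0.584 and 0.635 in 786-O, and UPK1A, UPK3A and KRT20 were too low to be tested. Of the markers set down for the bladder label, urothelial keratins and factors were present in 5637 and uroplakins were near absent.

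Squamous genes, which urothelium expresses on cornifying, were higher in 5637 for 8 of 15 tested members (53.3% against 19.1% of all tested genes). Only 2 of the 8 calls were kept under all scalings. In 786-O 1 was higher (6.67% against 5.98%), KRT4, a call lost under another scaling. SERPINB3, a protease inhibitor of squamous epithelia, was at 43.8 against 0.0878, and LYPD3, a surface protein of such cells, at 47.7 against 2.67. Involucrin (IVL), of the cornified envelope, reached only 5.26, 5.44 and 6.26 in 5637.

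Genes of epithelial junctions and their regulators were called higher in 5637 for 27 of 33 tested members, 20 of them under all scalings, and none was higher in 786-O. Their median log2 difference was 3.83. E-cadherin (CDH1) was at 197, 190.5 and 199 in 5637 and at 0.0358, 0 and 0 in 786-O. ESRP1, the epithelial splicing regulator, was at 283, 265 and 269 against 0 in all 3 libraries of 786-O, at least 1891-fold higher. The protease matriptase ST14 (284 against 0.138) and CLDN7, a claudin (310.5 against 0.955), showed the same order. EHF, an epithelial ETS factor outside the list, was at 1213 against 0.102.

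Mesenchymal and matrix genes were more often called higher in 786-O than all genes were, but members stood on both sides. Of 28 tested members 10 were higher in 786-O (35.7% against 5.98% of all tested genes, 7 under all scalings). Higher in 5637 were 6 (21.4% against 19.1%, 5 under all scalings). The median of the list was -0.73, below the 0.65 of all tested genes. Vimentin (VIM), the mesenchymal filament, was at 36.5, 32.1 and 34.5 in 5637 and 1279.7, 1408 and 1354 in 786-O. SPARC, a matrix glycoprotein, was at 0.388 against 920.2, NNMT, a methyltransferase of nicotinamide, at 1.34 against 352, and COL6A3 at 0.0774 against 157. N-cadherin (CDH2) was at 57.2, 57.3 and 54.6 in 5637 and 219, 253 and 238 in 786-O, 4.198 times higher in 786-O, at the edge of the threshold (log2 difference -2.05 (SE 0.0637)). On the other side stood TWIST1, a transcription factor of mesenchymal cells, with 43.7, 42.9 and 46.4 in 5637 against 0.218, 0 and 0, and the collagen COL12A1 with 525 against 4.196. Each line held members of this list that were near 0 in the other.

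**Figure D2:**
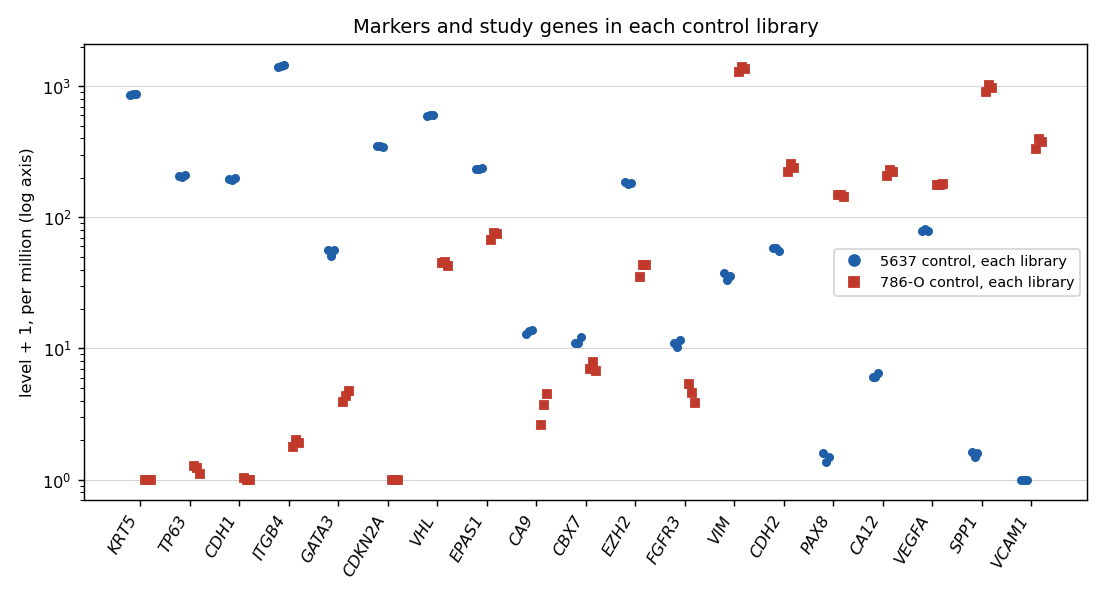
Level + 1 on a log axis of 19 markers and study genes in each of the 3 control libraries of 5637 (blue circles) and 786-O (red squares). Libraries of a line lie close together, KRT5 to VHL lie higher in 5637, and VIM to VCAM1 lie higher in 786-O.

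Renal lineage factors were present in 786-O in part. Of 16 tested members 7 were higher in 786-O (43.75% against 5.98% of all tested genes, 5 under all scalings). Higher in 5637 were 3 (18.75%, near the 19.1% of all tested genes, 3 under all scalings). The median of the list was -1.38. PAX8, which marks renal epithelium, was at 146, 146 and 143 in 786-O and 0.595, 0.364 and 0.491 in 5637. POU3F3, a factor of the nephron, was at 28.8 against 0. SALL1, a kidney development factor, was at 19.2, 25.1 and 20.02 against 0. PAX2, by contrast, reached only 4.395, 4.97 and 3.75 in 786-O, a call lost under another scaling. SIX2, a factor of nephron progenitors, was at 22.6, 21.3 and 22.5 in 5637 and 0 in 786-O, and SIM2, a bHLH-PAS factor, at 59.7 against 0.0858, so these members lay opposite to their list's name. LHX1 was also called higher in 786-O, in a stretch of chromosome 17 whose neighbours had a median difference of -3.15.

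Tubule function genes were higher in 786-O for 10 of 18 tested members (55.6% against 5.98% of all tested genes, 8 under all scalings). Higher in 5637 were 2 (11.1% against 19.1%, 1 under all scalings). Osteopontin (SPP1) was at 907, 1026 and 969.5 in 786-O and 0.632, 0.478 and 0.587 in 5637. The brush-border enzymes GGT1 (135 against 0.194) and ANPEP (110.3 against 0.397), the injury marker HAVCR1 (60.1 against 0) and the tubule cadherin CDH6 (51.6 against 0.08801) followed. GGT1 has near-identical copies, so its level is uncertain. The uptake receptors LRP2 and CUBN, the transporters SLC22A6, SLC22A8 and SLC34A1, and UMOD did not pass the filter on low values in these lines. AQP3, a water and glycerol channel, was higher in 5637 (162, 171 and 169 against 0.07501, 0.07304 and 0.159).

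Components of HIF regulation were expressed in both lines, and none was called higher in 786-O. Of 13 tested components 2 were called higher in 5637 (1 under all scalings), a share of 15.4% near the 19.1% of all tested genes. VHL RNA was at 589.5, 606 and 599 in 5637 and 43.8, 44.6 and 41.7 in 786-O, without overlap (13.8 times higher, log2 difference 3.76 (SE 0.0302), 3.25 in the silenced libraries). EPAS1 was at 233, 232 and 239 against 65.6, 75.4 and 74.2 and HIF1A at 875, 776 and 838 against 196, 225 and 206, both higher in 5637 but under the threshold, with log2 differences of 1.70 and 1.98. Their partner ARNT was at 71.4 against 15.8, a call lost under another scaling.

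HIF target genes went both ways. Of 39 tested members 5 were higher in 786-O (12.8% against 5.98% of all tested genes, 4 under all scalings). Higher in 5637 were 3 (7.69% against 19.1%, 1 under all scalings). The median of the list was 0.24, below the 0.65 of all tested genes. The carbonic anhydrases, which set pH at the cell surface, stood in opposite order. CA12 was at 204, 229 and 219.7 in 786-O and 5.102, 5.07 and 5.55 in 5637. CA9 was at 11.8, 12.6 and 12.9 in 5637 and 1.59, 2.71 and 3.504 in 786-O, without overlap and just under the threshold (log2 difference 1.93 (SE 0.236)). Cyclin D1 (CCND1, 824 against 167) and the glucose transporter SLC2A3 (33.2 against 4.91) were higher in 786-O. VEGFA, the endothelial growth factor, was at 175, 175 and 178 in 786-O and 77.6, 80.03 and 77.9 in 5637, 2.24 times higher and not called. PDK1, ANKRD37 and LOX were higher in 5637, LOX, a collagen crosslinker, at 44.2 against 3.32.

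The 250 bases before the RefSeq start of both carbonic anhydrase genes are shown. These genes were chosen because they share a family and a list but differ in order between the lines. The sequences are from the RefSeq promoter table (GRCh38.p14), read 5′ to 3′ on the strand of the gene. They span chr9:35673678-35673927 (plus strand) for CA9 and chr15:63381847-63382096 (minus strand) for CA12. In the gene positions used for the levels, CA9 starts at 35673856 and CA12 at 63382161. By those positions the CA12 window lies inside the gene and the end of the CA9 window does too. Capitals mark a form of the core of the HIF response element, searched as ACGTG and, for the other strand, CACGT. The form GCGTG was not searched, here or in the shares below. The CA12 window holds CACGC, which is GCGTG on the other strand.
CA9: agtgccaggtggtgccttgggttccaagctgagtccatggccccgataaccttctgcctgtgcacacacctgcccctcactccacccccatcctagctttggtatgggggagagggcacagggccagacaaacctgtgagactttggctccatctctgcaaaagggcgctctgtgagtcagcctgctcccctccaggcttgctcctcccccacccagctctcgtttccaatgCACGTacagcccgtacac
CA12: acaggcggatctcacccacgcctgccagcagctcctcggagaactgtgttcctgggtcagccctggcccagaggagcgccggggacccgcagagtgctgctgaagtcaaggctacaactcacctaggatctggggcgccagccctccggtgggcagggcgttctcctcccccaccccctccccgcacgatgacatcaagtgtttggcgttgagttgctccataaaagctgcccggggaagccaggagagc
CA9 holds 1 such match, whose first base lies 18 bases before the start, and CA12 holds 0 in this window. Over the 10734 tested genes with a RefSeq promoter, 22.9% held a match in the 250 bases before the start. The share was 21.3% of the promoters of genes higher in 5637 (426 of 2001) and 21.3% of those of genes higher in 786-O (126 of 591), and 14 of 29 promoters of HIF target genes (48.3%) held one. A match is a description of letters and not a bound site.

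The INK4 locus of chromosome 9 separated the lines. CDKN2A, which encodes the cyclin-dependent kinase inhibitor p16 and the p53 activator ARF, was at 347, 350.4 and 345 in 5637 and 0 in all 3 libraries of 786-O, at least 2142-fold higher. Its neighbour CDKN2B, which encodes p15, was at 71.8, 79.3 and 75.5 against 0 in all 3 libraries, at least 436-fold higher. MTAP, a salvage enzyme next to them, was at 83.1, 80.9 and 80.1 against 12.6, 15.4 and 13.96, lower in 786-O but not at 0, and its log2 difference of 2.46 was 0.70 relative to genes of like length and GC. All 3 lie in a run of 6 tested neighbours between 20999515 and 22009363 of chromosome 9 in GRCh38 (HACD4, KLHL9, IFNE, MTAP, CDKN2A and CDKN2B) that were all called higher in 5637. Of these calls those of CDKN2A and CDKN2B held under all 5 other scalings and the other 4 did not. HACD4 was at 6.99 against 0.0157 and KLHL9 at 116 against 18.2, while DMRTA1, the next tested gene, was at 9.68 against 18.6. DNA copy number was not analysed here.

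Of 23 tested genes of the INK4, RB and G1 cyclin axis, 6 were higher in 5637 (3 under all scalings) and 2 higher in 786-O (2), shares of 26.1% and 8.696% near the 19.1% and 5.98% of all genes. RB1, the pocket protein that p16 protects, was at 8.05, 8.599 and 8.33 in 5637 and 13.5, 15.9 and 15.2 in 786-O, a log2 difference of -0.76 (SE 0.0694) that was not called. E2F3, a transcription factor that RB1 restrains, was at 400.2, 404 and 397 against 19.9, 29.2 and 24.1. CDKN2C, which encodes p18, lay the other way with 15.5, 16.8 and 16.4 against 148, 124 and 131.

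**Figure D3:**
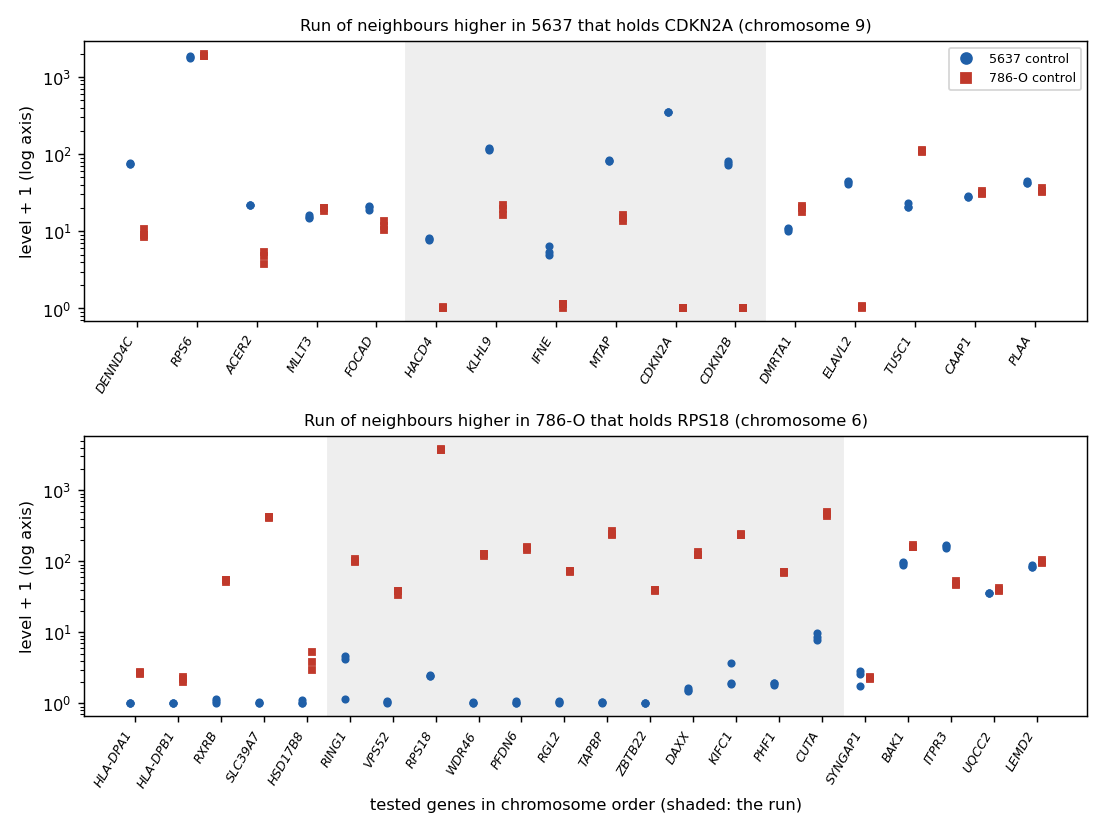
Level + 1 on a log axis of tested genes in chromosome order in the 3 control libraries of 5637 (blue circles) and of 786-O (red squares), for the run of 6 genes with CDKN2A (upper panel, shaded) and the run of 12 with RPS18 (lower panel, shaded), with 5 tested genes on either side. CDKN2A and CDKN2B are at 0 in 786-O, and RPS18 and its neighbours are near 0 in 5637.

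Calls lay beside each other along the chromosomes. In 148 runs of at least 3 tested neighbours, 533 genes were higher in 5637 (21.0% of those calls), and in 27 runs 162 genes were higher in 786-O (20.4%). The longest runs higher in 5637 held 8 genes, from OXGR1 to DOCK9 on chromosome 13 and from ENPP4 to TNFRSF21 on chromosome 6. In the first the median level of the genes was 64.2 in 5637 and 7.82 in 786-O, and in the second 15.6 and 0.185. A run of 6 genes on chromosome 11 ended with YAP1, the Hippo pathway effector, at 169.8 against 36.1, with a log2 difference of 1.24 relative to genes of like length and GC, under the threshold. The longest runs higher in 786-O held 24, 18 and 12 genes and lie in the MHC region. Chromosome 13 had the highest median log2 difference of the autosomes and X, 1.71 over 223 tested genes, with 42.2% of them higher in 5637, and 0.90 remained relative to genes of like length and GC. Among the autosomes and X, chromosomes 22 and 16 had the lowest medians, 0.027 and 0.13.

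Differences also followed the make-up of genes. The median log2 difference was -0.20 in the shortest sixth of tested genes (177 to 2595 bases) and 1.42 in the longest (8790 to 46064 bases). It was 1.10 in the sixth of lowest GC content and 0.35 in that of highest. Spearman's rho across the 13304 genes, which are not independent replicates, was 0.296 with length and -0.170 with GC. Lengths are those of the 786-O table. The part of library preparation or of counting in this slope was not tested.

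**Figure D4:**
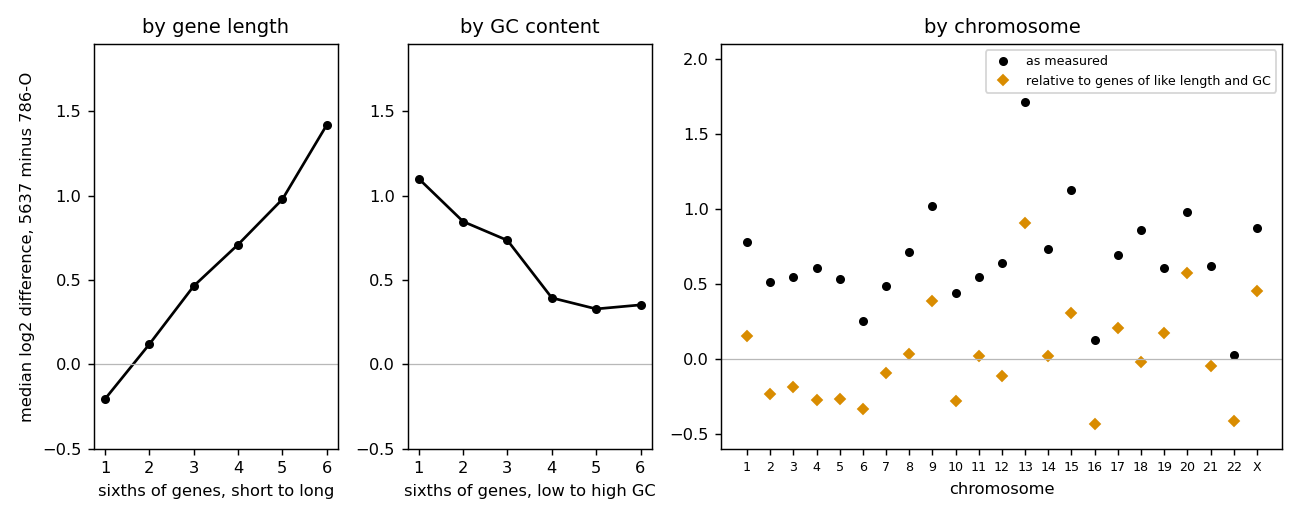
Median log2 difference (5637 minus 786-O) of tested genes by sixths of gene length (left), by sixths of GC content (middle) and by autosome and X (right), the last as measured (black) and relative to genes of like length and GC (orange). It climbs from -0.20 to 1.42 with length, and chromosome 13 stands highest on both measures.

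The genes the study is named for differed moderately. CBX7 was at 10.1, 9.91 and 11.1 in 5637 controls and 6.02, 6.93 and 5.74 in 786-O controls, a log2 difference of 0.66 (SE 0.0854) close to the median of all genes. In the libraries labelled shCBX7 it was at 8.67 ± 0.356 and 3.71 ± 0.315 (mean ± SD, n = 3). EZH2, the methyltransferase of Polycomb repressive complex 2, was at 185, 178 and 183 against 34.2, 42.7 and 42.03, a log2 difference of 2.18 (SE 0.102) that was called. Relative to genes of like length and GC it was 1.29, under the threshold. FGFR3, a receptor often mutated in bladder cancer, was at 9.93, 9.24 and 10.5 against 4.38, 3.6001 and 2.85, higher in every 5637 library and not called (log2 difference 1.25 (SE 0.148)). In the silenced libraries that difference was 3.61.

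Polycomb genes were called at shares near those of all genes. Of 23 tested subunits of complex 1, 4 were higher in 5637 (17.4% against 19.1% of all tested genes, 2 under all scalings) and 2 higher in 786-O (8.696% against 5.98%, 2 under all scalings). Of 11 subunits of complex 2, 3 were higher in 5637 (2) and 1 higher in 786-O (1). PHC3, a polyhomeotic subunit, was at 41.9 against 1.71, and JARID2, a complex 2 cofactor, at 161 against 13.1. The 3 members higher in 786-O were RING1, PCGF2 and PHF1, at 2.35, 0.0294 and 0.904 in 5637, and their neighbours had medians of -6.28, -5.29 and -5.52. These 3 lie in the stretches near 0 in 5637 and are not read as line differences.

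Receptor kinases and their ligands held 6 of 24 tested members higher in 5637, 5 under all scalings, and 1 higher in 786-O (1). These shares, 25% and 4.17%, were near the 19.1% and 5.98% of all genes, so the members are given for their own values. IGF1R, the insulin-like growth factor receptor, was at 189.9, 182 and 196 in 5637 and 2.51, 3.17 and 2.84 in 786-O. INSR, the insulin receptor, was at 28.8, 28.4 and 29.7 against 0.212, 0.0825 and 0.246. ERBB3, the weakly active partner of other ERBB receptors, was at 23.7 against 0.416, and the EGFR ligands AREG and EPGN at 495 against 31.1 and 16.03 against 0.281. DDR1 was the member on the other side, in the MHC region (neighbours -6.99). Of 15 genes of FGF signalling 4 were higher in 5637 (26.7%) and 1 higher in 786-O (6.67%), against 19.1% and 5.98% of all genes. None of these calls held under all 5 other scalings, which low levels alone can bring about. FGFR2 was at 16.7 against 1.41, and the secreted FGF carrier FGFBP1 at 15.1 against 0.331. FGF5 was higher in 786-O (7.69 against 0.517).

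Among TGF-beta and BMP genes 6 of 22 were higher in 5637 (2 under all scalings) and 1 higher in 786-O (1), shares of 27.3% and 4.55% near the 19.1% and 5.98% of all genes. The gene higher in 786-O was ID2, a BMP target that blocks bHLH factors, at 296, 291 and 298 in 786-O and 5.42, 5.96 and 5.43 in 5637. The activin antagonist follistatin (FST) was at 21.5, 22.03 and 22.2 in 5637 and 0.224, 0 and 0 in 786-O, and the latent TGF-beta carrier LTBP1 at 43.2 against 3.13.

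Secreted inflammatory genes differed by gene. Of 32 tested members 12 were higher in 786-O (11 under all scalings) and 7 higher in 5637 (5), against 5.98% and 19.1% of all genes. TNF, among those higher in 786-O, lies in the MHC region near 0 in 5637 and is not read as a line difference. Interleukin 1 was on the side of 5637. IL1A was at 1243, 1156 and 1209 against 0, 0.304 and 0, and IL1B at 1013, 1022 and 1005 against 1.79, 1.67 and 1.74. LCN2, an iron-binding defence protein, was at 8037 against 9.74. On the side of 786-O, the leukocyte adhesion molecule VCAM1 was at 333, 393 and 374 against 0 in all 3 libraries of 5637, at least 3524-fold higher. IL6 was at 182, 208 and 202 against 1.93, 1.38 and 1.61, and the chemokine CCL5 at 92.2, 87.1 and 96.3 against 0, at least 221-fold higher. The neighbours of CCL5 on chromosome 17 had a median of -1.69, so its value is in doubt. CD70, a TNF family ligand outside the list, was at 1538 against 2.94.

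Interferon response genes were more often higher in 786-O, 11 of 38 tested members (28.9% against 5.98% of all tested genes, 8 under all scalings). Higher in 5637 was 1 (2.63% against 19.1%), SAMD9, a call lost under another scaling. The median of the list was -1.22. BST2, a tether of budding viruses, was at 1775, 1586 and 1624 in 786-O and 5.81, 7.92 and 6.63 in 5637. IFI6 was at 2764 against 56.01 and OASL at 57.8 against 1.23. IFI27, at 80.7 against 0.649, lies in a run of chromosome 14 whose neighbours had a median of -3.77. In the silenced libraries 22 members were higher in 786-O. Antigen presentation genes were higher in 786-O for 12 of 22 (12 under all scalings) and higher in 5637 for 1 (0), but 15 of the 22 lie in the regions near 0 in 5637. HLA-B was at 11.3 against 2522 and TAP1 at 0.0714 against 155, with neighbours at -5.40 and -4.83, so these values are not read as a line difference.

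Basement membrane proteins, which carry an epithelium, were higher in 5637 for 13 of 22 tested members (59.1% against 19.1% of all tested genes, 8 under all scalings). In 786-O 1 was higher (4.55% against 5.98%), NID2, which held under all scalings. The median of the list was 2.50. Nidogen 1 (NID1), which links laminin to collagen IV, was at 429, 413 and 433 against 0, 0.0735 and 0. The laminin chains LAMA1, LAMA5 and LAMA4 were at 94.3, 326 and 35.1 in 5637 against 0.422, 4.17 and 0.166 in 786-O. The collagen IV chains COL4A6 and COL4A5 were at 55.8 and 102 against 0.205 and 3.14. These genes are long, and relative to genes of like length and GC the list's median was 1.43.

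Matrix receptors and proteases differed by member. Integrins ITGB6, ITGA2 and ITGA6, of epithelia, were at 182, 312 and 771 in 5637 against 3.23, 8.28 and 23.7 in 786-O. ITGB3, the vitronectin receptor chain, was at 78.2, 92.4 and 89.5 in 786-O and 7.78, 6.703 and 8.45 in 5637, and ITGA4, which binds VCAM1, at 5.43 against 0.0131, a call lost under another scaling. ITGB3 shares 51.6% of its exon length with another gene on the same strand, so its reads may be shared. In total, 4 of 16 integrins were higher in 5637 (25%, near the 19.1% of all genes, 4 held) and 2 in 786-O (12.5% against 5.98%, 1 held). Of 22 genes of matrix proteolysis 7 were higher in 5637 (31.8%, 5 held) and 4 higher in 786-O (18.2%, 2 held). The inhibitors were divided, TIMP3 at 751, 713 and 747 in 5637 against 0.433, 0.468 and 0.203, TIMP1 at 816, 865 and 850.3 in 786-O against 102, 114 and 109. Collagenase MMP1 (272 against 11.97) and stromelysin MMP10 (42.5 against 0.591) were higher in 5637.

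S100 calcium-binding proteins were higher in 5637 for 6 of 16 (37.5% against 19.1% of all tested genes, 5 under all scalings). In 786-O 1 was higher (6.25% against 5.98%, 0 under all scalings). The median log2 difference of the list was -0.067, below the 0.65 of all tested genes, so the family as a whole was not shifted to 5637. S100A9 was at 22530.2, 23219.9 and 22777 in the 5637 libraries and at 0 in all 3 of 786-O, at least 18769.8-fold higher, and its partner S100A8 at 275, 317 and 272 against 0, at least 412-fold higher. S100A2, of basal epithelia, was at 1036 against 94.1. S100A6 was among the 10 highest genes of 786-O (4909 against 1876), without a call.

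Genes that handle metals, platinum or drugs mostly lay within the threshold. MT1E, a metallothionein, was at 1155, 1165 and 1254 in 786-O and 0, 0.151 and 0 in 5637, while its relative MT1F was at 137 in 5637 against 50.5. The family has near-identical copies, so single members are uncertain. GSTP1, which conjugates glutathione to drugs, was at 953, 989 and 959 in 5637 against 106, 89.3 and 92.6, and CHAC1, which degrades glutathione, at 121, 97.999 and 103 in 786-O against 9.68, 11.5 and 11.6. They were the called members among 19 tested glutathione genes, 5.26% in each direction against 19.1% and 5.98% of all genes. Both calls held under all scalings. Of 17 transporters 2 were higher in 5637 (11.8%, 1 held) and 1 higher in 786-O (5.88%, 1 held). ABCB1, the drug efflux pump, was at 13.5, 16.4 and 14.6 in 786-O and 0.0361, 0.0545 and 0.0261 in 5637. SLC22A3, an organic cation transporter, was at 23.4 in 5637 against 0, and ATP7A, a copper pump, at 12.7 against 1.58, a call lost under another scaling. CYP1A1, the enzyme induced by aryl hydrocarbon receptor ligands, was at 967, 987 and 978 in 5637 against 1.03, 0.502 and 1.499.

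HOX genes, which set position along the body axis, were called about as often as all genes, 7 of 35 higher in 5637 and 2 higher in 786-O, with 3 and 2 held under all scalings. HOXD13 was at 17.7, 18.2 and 18.7 in 5637 and 0 in 786-O, and HOXB13 at 15.3 against 0.174. HOXC10 was at 17.5, 22.7 and 18.8 in 786-O and 0 in 5637. PRAME, a cancer-testis antigen, was at 50.8, 51.7 and 45.3 in 786-O and 0 in 5637, and MAGEA12, of the separate MAGE family, at 38.1 in 5637 against 3.84. UCHL1, a ubiquitin hydrolase of neurons and many tumours, was at 933, 999 and 861 in 786-O against 0 in 5637, and FABP4, a fatty acid carrier, at 955 in 5637 against 0.219.

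Genes of general upkeep mostly held few calls. Of all tested genes 19.1% were called higher in 5637 and 5.98% higher in 786-O. The median log2 differences of the lists here all lay below the 0.65 of all tested genes. They were -0.78 for oxidative phosphorylation, -0.61 for proteasome, -0.57 for glycolytic and -0.50 for ribosomal genes. Replication, actin cytoskeleton and mitosis genes had medians of 0.23, 0.067 and 0.020. No glycolytic, ribosomal or proteasome gene was called higher in 5637. Of 28 tested replication genes 0 were called in either direction. Of 30 mitosis genes 4 were higher in 5637 (13.3%), TOP2A, CENPF, MKI67 and CENPE, none of which held under all scalings. In 786-O 1 was higher (NUSAP1, 3.33%), which held. NUSAP1 shares 62.2% of its exon length with another gene on the same strand, so its reads may be shared. TOP2A, the topoisomerase of dividing cells, was at 1294 against 197. Of 59 ribosomal proteins 2 were called, RPS18 and RPS9, both in the stretches near 0 in 5637, and of 31 proteasome subunits 1, PSMB3, likewise. Glycolytic enzymes had 2 of 17 higher in 786-O (11.8%), TPI1 (2989 against 585) and PGAM1 (1839.8 against 366), neither of which held under all scalings. GAPDH was at 6793, 6764 and 6757 in 786-O and 2854, 2675 and 2698 in 5637, not called. Of 30 tested nuclear genes of oxidative phosphorylation 1 was higher in 5637 (3.33%, 0 held) and 2 higher in 786-O (6.67%, 2 held). SDHA, of the respiratory chain, was at 162 in 786-O against 10.7 in 5637, and it has near-identical pseudogenes. NDUFA6, also higher in 786-O, lies in a run of 3 neighbours with a median level of 0 in 5637. Of 26 actin cytoskeleton genes 4 were higher in 786-O (15.4%, 3 held) and 1 higher in 5637 (3.85%, 0 held). Those higher in 786-O included MYL9, a myosin light chain (63.8, 63.6 and 64.7 against 2.08, 2.97 and 1.66), and MSN, moesin (723 against 111).

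**Figure D5:**
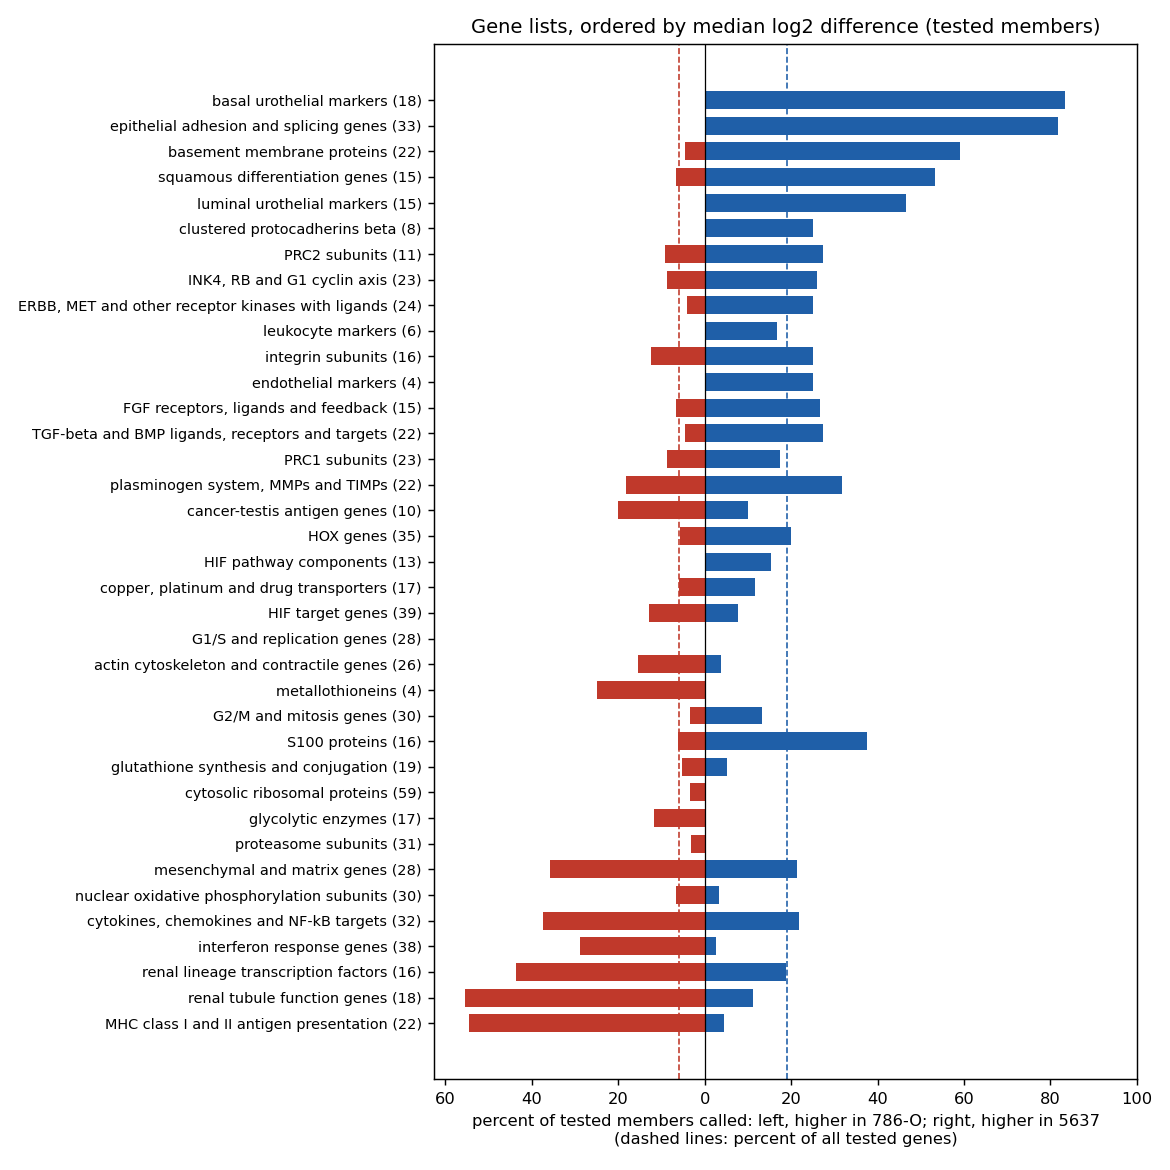
Percent of the tested members of each gene list called higher in 5637 (blue, right) and higher in 786-O (red, left), ordered by median log2 difference, with the number of tested members in parentheses. Dashed lines are the shares of all tested genes, 19.1% and 5.98%. Basal urothelial and epithelial adhesion genes reach farthest to the right, and renal tubule and antigen presentation genes farthest to the left, the latter mostly genes in the stretches near 0 in 5637.

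Markers of other cell types were checked in both lines. Of 14 leukocyte markers 8 had a mean level under 0.1 in 5637 and 5 in 786-O, with the lymphocyte markers CD3E and MS4A1 at 0 in both. The summed level of the list was 801 to 824 in 5637 and 282 to 289 in 786-O, most of it LCP1 and LAPTM5. CORO1A was the called member (56.5 against 3.803), and the call held under all scalings. Of 9 endothelial markers the summed level was 8.90 to 11.2 in 5637 and 2.73 to 3.35 in 786-O, and ESAM was the called member (6.07 against 0.717), a call lost under another scaling. In the silenced libraries 0 endothelial markers were called.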

How the data were processed

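RNA of 12 libraries was sequenced, 3 per line and arm, and the 6 control libraries are compared here. Per the file headers, the authors deposited FPKM of each gene and library, with the lines in 2 files. The aligner is not given in the sources used here. The submitters' processing notes name mm10 although the samples are human. All 18548 shared genes match GENCODE 29 (GRCh38) in position.

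FPKM of protein-coding names unique in both tables were rescaled to a sum of 1000000 with Python 3.11.15, numpy 2.4.6 and pandas 2.3.3. The 1355 protein-coding names that were not matched in the 5637 table held 9.50% to 11.1% of the protein-coding FPKM of 786-O, and were left out. Low FPKM are whole multiples of 1 read: within 0.01 reads, 92.0% of expressed shared genes were whole in 5637, with lengths of the 786-O table, and 100% in 786-O. Recovered reads served for depth, the floor of 3 reads, the search for genes with equal reads and the setting with genes of whole reads. They were not put to a test, since line and table cannot be told apart. No library pair of 66 held identical values. Value columns without a group numbered 0.

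Calls, filter and pseudocount of 1 are as in the results. Named genes were the study's 3 genes, the 15 largest called differences per direction with a mean of at least 10, the 10 most abundant per line, up to 6 called members per list and defining markers, and 1 Y-linked gene and some others among them are not reported here. Members and lists were chosen with earlier results of these data known. Genes named outside this rule (UPK1A, HACD4 and other neighbours, YAP1) were chosen after their values were seen. Call scripts were tested on simulated data.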

Additional observations from a re-analysis of the deposited data

Results flagged for a closer look

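ACTB, beta actin, was lower in every 5637 control library than in every 786-O control library (log2 difference -1.40), and higher in every 5637 shCBX7 library than in every 786-O shCBX7 library (log2 difference 2.02). Its mean level was 2344 ± 24.0 in 5637 control, 6184 ± 131 in 786-O control, 2519 ± 129.8 in 5637 shCBX7 and 621 ± 9.04 in 786-O shCBX7 (SD, n = 3 each). The difference between the 2 arms was not tested. Among all tested genes, 52 had line differences of opposite sign in the 2 arms, of at least 0.5 each and without overlap.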

How the results depend on the processing

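No paired analysis was possible because the 2 lines share no culture, no test runs across their tables, and the 5637 control columns could not be tied to single samples. Counts of genes higher in 5637 and in 786-O (2544 and 796) were 1250 and 1649 with median centring, 1377 and 1299 with quantile normalization, 5440 and 2002 at 2-fold, 1067 and 430 at 8-fold, and 1435 and 1412 with percentile ranks 25 points apart. With FPKM as deposited the count higher in 5637 was 1162 (643 in 786-O), and 1117 in the silenced libraries. Relative to genes of like length and GC, an alternative chosen after seeing the data, it was 1388 (1119 in 786-O). With a pseudocount of 0.1 the counts were 3463 and 1059, with no filter 2544 and 796, without the 100 highest genes in the rescaling 2494 and 926, and 2243 and 742 with genes of whole reads in both lines. Without the MHC, leukocyte receptor complex and pseudoautosomal regions and overlapping genes, also chosen after seeing the data, they were 2516 and 693. With 1 library left out they lay between 2466 and 2616, and between 796 and 808. The alternatives shifted the median difference of all tested genes by up to 0.80. No called difference of the 204 named genes changed sign under these alternatives, which the call rule (4-fold, no overlap) made unlikely in advance. Of their 3807 values, 2721 moved by less than 1 SD between libraries (for percentile ranks, kept their call) and 1086 by more. The causes were not tested.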
